A study of Manis javanica with 3 samples.

Results

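The smooth muscle contractile genes of the Malayan pangolin (Manis javanica) were examined in 3 RNA sequencing libraries. The group holds 10 genes: ACTA2, ACTG2, MYH11, DES, TAGLN, CNN1, LMOD1, SYNM, MYLK and TPM2. They were picked by gene symbol from the deposited annotation, and the product named by the non-redundant (NR) protein database was used to tell each gene from its paralogs. Of the 10 genes, 9 have a record among the 24220 genes of the expression tables. The ACTG2 record (gene23973), which encodes gamma enteric smooth muscle actin, is annotated but was not analysed here because it has no row in the expression tables.

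The libraries were made from an adult female, a wild animal that died during rescue and was dissected after its natural death, and ants were found in its stomach. No treatment was applied, and the groups are the tissues themselves: small intestine, salivary glands and liver, with 1 library each. The study compared these tissues to find genes related to a diet of ants. With 1 library per tissue no difference has a replicate check and no p-value can be given, so each interval printed here is a 95% interval that covers counting error only.

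Smooth muscle cells shorten when myosin filaments pull on actin filaments. Calcium entering the cytoplasm binds calmodulin, which activates myosin light chain kinase, and the phosphorylated myosin then walks along actin. Thin filament proteins tune this contact, and a network of intermediate filaments and dense bodies carries the force through the cell. In the gut wall this tissue forms thick layers that mix and move food, whereas in glands and liver it is found mostly around vessels and ducts.

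The library labelled small intestine held 10158924 fragments counted over genes, that of the salivary glands 8318686 and that of the liver 14568778. A count of 0 therefore allows up to 0.295, 0.361 and 0.206 CPM (counts scaled to 1000000 per library), respectively, which is 3 fragments of each total. The labels were checked against marker lists. All 11 hepatocyte genes were above an FPKM of 1 in the liver (FPKM, fragments per kilobase of transcript and 1000000 mapped fragments), with fibrinogen FGB at 12822 FPKM. Of all genes, 57.0% were above 1 FPKM there. Of 10 salivary gland genes 5 have a row, and 3 of these were above 1 FPKM in the salivary glands. This is near the 56.3% of all genes above 1 FPKM there, so the count does not bear on the label. The water channel AQP5 was at 2.29, 94.3 and 24.7 FPKM in the order small intestine, salivary glands and liver, and PIP at 0.481, 28.0 and 0 FPKM. The third, AMY2 (named after its values were seen), was at 8.56, 5.39 and 16.3 FPKM and went against the label, while BPIFA2 and LPO (likewise) were at 0.304 and 0.175 FPKM in the salivary glands. The library labelled small intestine went against its label. There 11 of 13 gastric genes exceeded 1 FPKM, with pepsin A (PGA) at 94138 FPKM, beside 59.4% of all genes. Only 2 of 11 enterocyte genes exceeded 1 FPKM there (VIL1 and SLC5A1, the latter named after its values were seen). What part of the digestive tract it holds was not tested, and it is called by its label below.

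All 9 measured genes had their highest level in the library labelled small intestine and their lowest in the liver. Their summed level was 4687 FPKM in the library labelled small intestine, 460.5 in the salivary glands and 42.5 in the liver. The first 2 sums were 8903 and 765 when the total was rescaled without the 10 most abundant genes, and the liver sum was 125 when records were taken by Swiss-Prot symbol alone. The main sums were 0.655%, 0.0771% and 0.00682% of all FPKM in the respective libraries. Counted as fragments, the 9 genes took 1.30% (1.30 to 1.31%, Wilson interval), 0.144% (0.141 to 0.146%) and 0.0103% (0.00984 to 0.0109%). The median level over the 9 genes was 623 FPKM, 41.1 FPKM and 1.30 FPKM, beside a median over all genes of 2.16, 1.76 and 1.89 FPKM. In bulk tissue, fewer smooth muscle cells and less RNA of these genes per cell cannot be told apart.

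**Figure D1:**
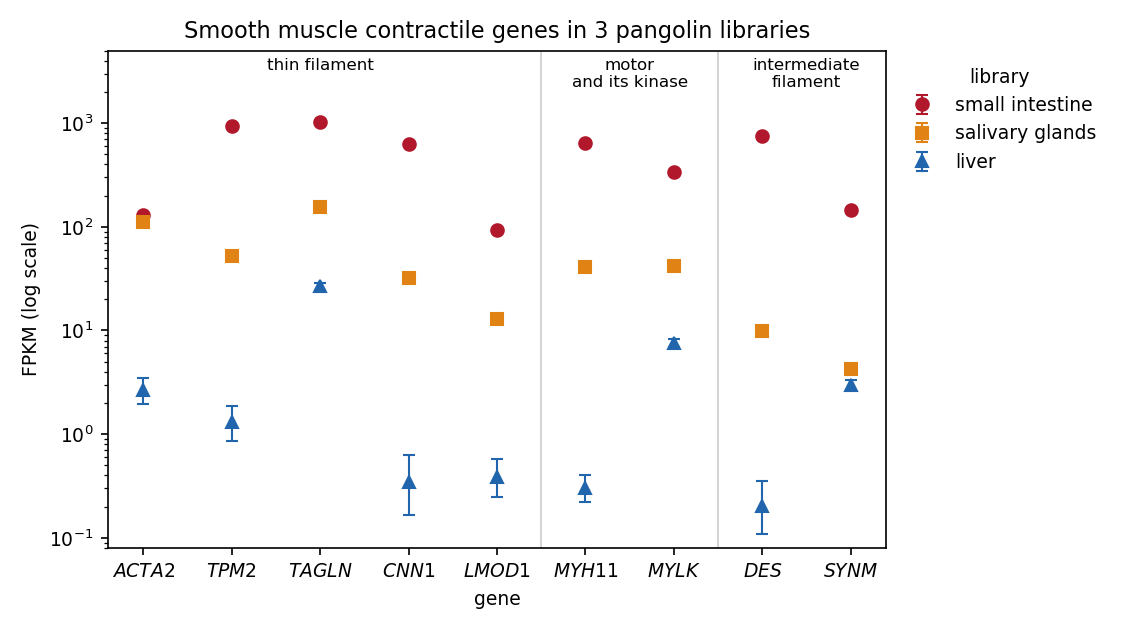
Level of each of the 9 measured contractile genes (x axis) in FPKM on a log scale (y axis) in the 3 libraries. Points are the single libraries and bars are 95% Poisson intervals, often smaller than the point. Every gene is highest in the library labelled small intestine, ACTA2 is nearly level between that library (130.1) and the salivary glands (111), and TAGLN stands above the other genes in the liver (26.7).

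The thin filament genes come first. TAGLN (gene13468), which encodes the actin-binding protein transgelin and lies on scaffold NW_016537069.1 from 103839 to 109368, was at 1023 FPKM (1004 to 1044) in the library labelled small intestine, 156 (149 to 163) in the salivary glands and 26.7 (24.5 to 29.0) in the liver. It was the highest of the 9 genes in each library. TPM2 (gene159, scaffold NW_016527321.1, 528066 to 535496), the beta tropomyosin that lies along actin, was at 943 FPKM (925 to 960.2), 52.2 (48.7 to 55.8) and 1.30 (0.866 to 1.88). It took the next place after TAGLN in the library labelled small intestine but only the fifth in the liver, where it rests on 28 fragments.

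CNN1 (gene10668, scaffold NW_016534423.1, 19703 to 25961), the calponin of differentiated smooth muscle, was at 623 FPKM (611 to 636) in the library labelled small intestine, 32.4 (29.9 to 35.1) in the salivary glands and 0.346 (0.166 to 0.636) in the liver. Only 10 CNN1 fragments were counted in the liver, the fewest of any of the 9 genes. LMOD1 (gene16499, scaffold NW_016540573.1, 386285 to 415130), a leiomodin that starts new actin filaments, was at 92.5 FPKM (89.5 to 95.6), 12.9 (11.95 to 14.0) and 0.388 (0.246 to 0.582). It was the lowest of the 9 genes in the library labelled small intestine, but not in the other 2 libraries. Its record carries the Swiss-Prot symbol of the related tropomodulin TMOD1, and was taken as LMOD1 from its NR product.

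ACTA2 (gene11905, scaffold NW_016535449.1, 49721 to 66232), the alpha smooth muscle actin, did not share the steep step between the digestive tract and the glands. It was at 130.1 FPKM (124 to 136) in the library labelled small intestine, 111 (105 to 116) in the salivary glands and 2.65 (1.97 to 3.48) in the liver. These values rest on 1714, 1723 and 51 fragments. Actin genes are nearly identical in their coding parts, so how reads were divided among ACTA2, the unlisted ACTG2 and the other actins is uncertain. The skeletal muscle actin ACTA1 had 259 fragments in the salivary glands, 7 in the library labelled small intestine and 0 in the liver.

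The motor and its kinase followed. MYH11 (gene12405, scaffold NW_016535921.1, 586687 to 696785), the smooth muscle myosin heavy chain, was at 638 FPKM (633 to 644) in the library labelled small intestine, 41.1 (39.8 to 42.3) in the salivary glands and 0.299 (0.219 to 0.399) in the liver. With 53624 fragments it gave more counts than any other of the 9 genes in the library labelled small intestine. MYLK (gene8585, scaffold NW_016532827.1, 6808 to 130316), the kinase that switches myosin on, was at 337 FPKM (330.3 to 344), 41.6 (39.2 to 44.2) and 7.59 (6.92 to 8.30). The MYLK and MYH11 intervals overlapped in the salivary glands, whereas in the liver MYLK was the second of the 9 genes and MYH11 the eighth.

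The FPKM of MYLK needs care. Set against the median of genes of at least 1000 bases with at least 200 fragments, its FPKM corresponds to a transcript of 0.503 of its listed length of 7447 bases in the library labelled small intestine, 0.377 in the salivary glands and 0.664 in the liver. For the other 8 genes this proportion was between 0.727 and 1.73, and for MYH11 in the salivary glands it was 1.62. The overlap of MYLK and MYH11 in the salivary glands therefore depends on these lengths. Their fragments there were 1093 and 4350, at listed lengths of 7447 and 6998 bases. The ratios between libraries below use counts, and the ratio of FPKM is given where it falls outside the counting interval.

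The intermediate filament genes differed in their pattern. DES (gene68, scaffold NW_016527297.1, 382533 to 390154), which encodes desmin, was at 754 FPKM (745 to 763) in the library labelled small intestine, 9.86 (8.93 to 10.9) in the salivary glands and 0.205 (0.109 to 0.350) in the liver. SYNM (gene1343, scaffold NW_016527953.1, 520525 to 556198), the large filament protein synemin that copolymerises with desmin, was at 145 FPKM (142 to 148), 4.27 (3.83 to 4.74) and 3.003 (2.68 to 3.35). DES was therefore 5.18 times SYNM in the library labelled small intestine, 2.31 times in the salivary glands and 0.0681 times in the liver. The SYNM record carries the Swiss-Prot symbol of vimentin (VIM), and was taken as SYNM from its NR product and KEGG symbol.

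The order of the 9 genes in the library labelled small intestine was TAGLN, TPM2, DES, MYH11, CNN1, MYLK, SYNM, ACTA2 and LMOD1, and among neighbours only MYH11 and CNN1 had overlapping intervals. In the salivary glands the order was TAGLN, ACTA2, TPM2, MYLK, MYH11, CNN1, LMOD1, DES and SYNM, with an overlap only between MYLK and MYH11. In the liver it was TAGLN, MYLK, SYNM, ACTA2, TPM2, LMOD1, CNN1, MYH11 and DES. There SYNM overlapped ACTA2, and the last 4 genes overlapped each with its neighbour in interval. These orders rest on the deposited FPKM, and the proportion of implied to listed length differed among genes. In the library labelled small intestine it was 0.727 for TPM2, 1.4 for DES and 1.51 for MYH11. Places of genes with such unlike proportions therefore depend on the length used, which the intervals do not cover. On the scaffolds, 0 of the 9 loci overlap another gene of the expression tables.

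Between the libraries, counts were scaled with the trimmed mean of M-values (TMM). In the library labelled small intestine over the liver, 9 of 9 genes were at least 2-fold higher, as were 24.2% of the 17399 genes with at least 10 fragments in either library. The median over the 9 genes was 261-fold (log2 ratio 8.03), beside a median log2 ratio of -0.08 over all genes tested. DES had the largest ratio, 3165-fold (1851 to 5946), and 14 of the 17399 genes had a larger one. MYH11 was 1973-fold higher (1479 to 2696), CNN1 1511-fold (821 to 3152), TPM2 678-fold (469 to 1020.3) and LMOD1 261-fold (174 to 412).

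The other 4 genes formed a lower set in this pair. ACTA2 was 56.9-fold higher (43.1 to 76.7), SYNM 48.2-fold (43.1 to 54.1), MYLK 35.8-fold (32.7 to 39.3) and TAGLN 31.2-fold (28.6 to 34.1). By FPKM, MYLK was 44.4-fold and TAGLN 38.4-fold higher, both outside these intervals. No interval of this set reached the interval of any of the 5 genes above it.

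In the library labelled small intestine over the salivary glands, 8 of 9 genes were at least 2-fold higher, as were 20.6% of the 16519 genes tested. The exception was ACTA2, at 1.12-fold (1.05 to 1.20), and its direction turned when counts were scaled by library size alone (log2 ratio -0.30). The largest ratio was again that of DES, 67.3-fold (61.0 to 74.4), followed by SYNM at 29.2-fold (26.2 to 32.6). CNN1 was 16.8-fold higher (15.4 to 18.3), TPM2 14.9-fold (13.9 to 16.0) and MYH11 13.9-fold (13.4 to 14.3). MYLK was 10.4-fold higher (9.73 to 11.0) by counts and 8.10-fold by FPKM, LMOD1 was 6.40-fold higher (5.88 to 6.98) and TAGLN 5.71-fold (5.44 to 5.999). By FPKM, 8 of the 9 ratios of this pair fell outside their counting intervals. The 7 besides MYLK were all larger by FPKM: DES 76.4-fold, SYNM 34.1-fold, CNN1 19.2-fold, TPM2 18.1-fold, MYH11 15.6-fold, LMOD1 7.14-fold and TAGLN 6.58-fold. Both intermediate filament genes had larger ratios than every thin filament or motor gene here, by counts and by FPKM.

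In the salivary glands over the liver, 8 of 9 genes were at least 2-fold higher, beside 22.9% of 17162 genes tested. Here the exception was SYNM, at 1.65-fold (1.42 to 1.93). MYH11 had the largest ratio, 142-fold (107 to 195), and CNN1 was 90.04-fold higher (48.6 to 189). ACTA2 was 50.9-fold higher (38.5 to 68.6), DES 47.0-fold (27.2 to 89.1), TPM2 45.5-fold (31.2 to 68.9) and LMOD1 40.8-fold (26.9 to 64.8), and these 4 intervals overlap. TAGLN was 5.46-fold higher (4.96 to 6.01), and MYLK 3.46-fold (3.10 to 3.86) by counts and 5.48-fold by FPKM. The 3 pairs share libraries, so their ratios are not independent of each other. In each pair 0 of 9 genes were at least 2-fold lower, beside 24%, 16.9% and 24.9% of the genes tested in the order in which the pairs are described. At least 4-fold higher were 9, 8 and 7 of 9 genes, beside 15.4%, 11.6% and 12.7%.

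**Figure D2:**
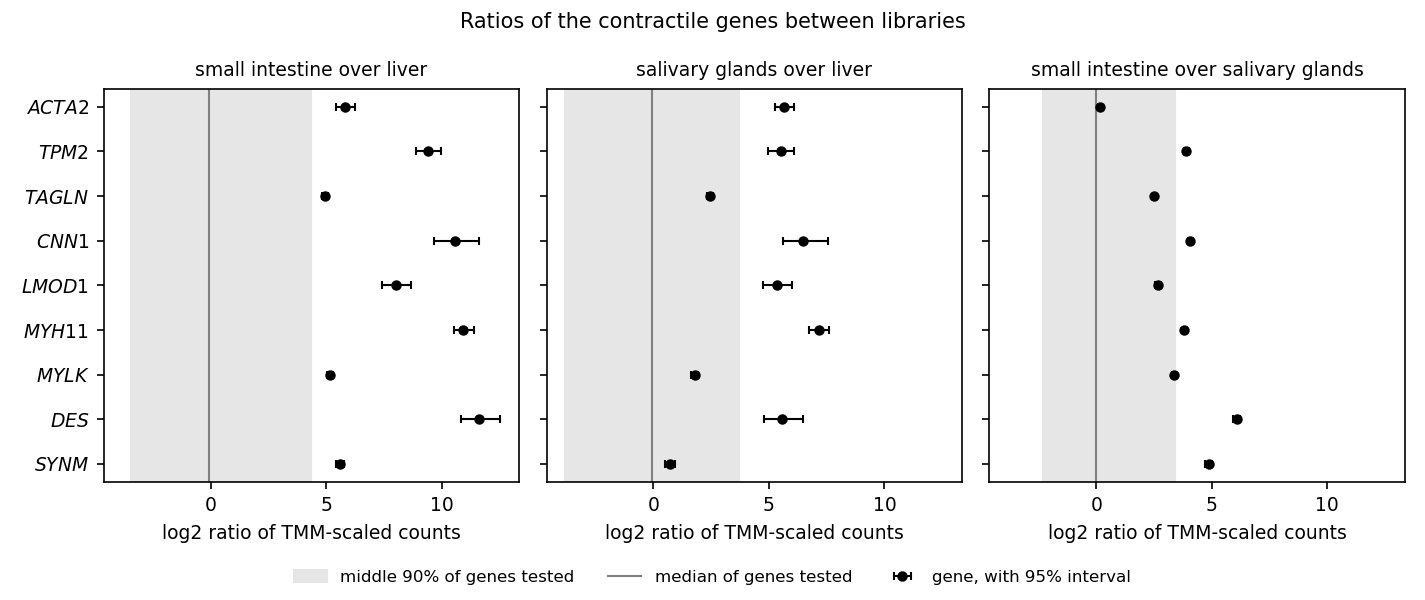
Log2 ratio of TMM-scaled counts (x axis) of the 9 contractile genes in each pair of libraries, with 95% counting intervals as bars. The grey band is the middle 90% of all genes tested and the grey line their median. In the small intestine over liver panel all 9 genes lie right of the band, with DES farthest at 11.63, while ACTA2 lies at 0.16 between the small intestine and the salivary glands and SYNM at 0.72 between the salivary glands and the liver.

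Some of the liver values are close to the counting limit, so they were set beside genes that are abundant in the library labelled small intestine alone. Of the gastric list, 10 genes had at least 1000 fragments in the library labelled small intestine. In the salivary glands their counts were 0.0403 to 0.258% of those in the library labelled small intestine, and in the liver 0 to 0.0314%. The 9 contractile genes were at 1.67 to 101% in the salivary glands and at 0.0535 to 5.43% in the liver. DES was the lowest of them in both (1.67% and 0.0535%), and pepsin A, with 1005640 fragments in the library labelled small intestine, had 949 in the salivary glands and 0 in the liver.

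Each measured contractile gene except SYNM was next set beside its paralogs, which other cell types use. MYH11 made up 89.8% of the summed FPKM of MYH11 and the 3 non-muscle myosins MYH9, MYH10 and MYH14 in the library labelled small intestine, 28.9% in the salivary glands and 0.219% in the liver. MYH9 differed little, at 58.8, 74.2 and 89.9 FPKM, and MYH14 was at 4.54, 23.9 and 43.8 FPKM. The heavy chain repertoire thus passed from mainly smooth muscle myosin to mainly non-muscle myosin across these libraries.

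The calponins, transgelins and tropomyosins gave related pictures. CNN1 was 87.5%, 47.9% and 0.299% of the calponin FPKM, in the order small intestine, salivary glands and liver, with CNN2 at 26.9, 25.4 and 11.8 FPKM and CNN3 at 62.2, 9.89 and 103 FPKM. TAGLN was 90.4%, 57.1% and 11.7% of the transgelin FPKM, with TAGLN2 at 107, 117 and 201 FPKM. TPM2 was 49.5%, 20.8% and 1.03% of the tropomyosin FPKM, and TPM1, the other muscle tropomyosin, was at 829, 87.1 and 17.1 FPKM. TPM3 and TPM4 stayed between 38.6 and 85.5 FPKM in all 3 libraries.

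Among the filament proteins and kinases, the contrast was different. DES was 92.1%, 45.6% and 1.43% of the summed FPKM of desmin, vimentin (VIM) and peripherin (PRPH), and VIM was at 62.8, 10.5 and 14.0 FPKM. LMOD1 was 88.3%, 54.9% and 2.27% of the sum of LMOD1, LMOD2, LMOD3 and TMOD1, and TMOD1 was at 12.3, 9.92 and 16.7 FPKM. MYLK was at least 95.3% of the FPKM of MYLK, MYLK2, MYLK3 and MYLK4 in every library, including the liver. ACTA2 never exceeded 12.6% of the summed FPKM of ACTA2, ACTB, ACTG1, ACTA1 and ACTC1, a sum that lacks the unmeasured ACTG2. ACTB was at 933, 262 and 523 FPKM and ACTG1 at 739, 481 and 344 FPKM.

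**Figure D3:**
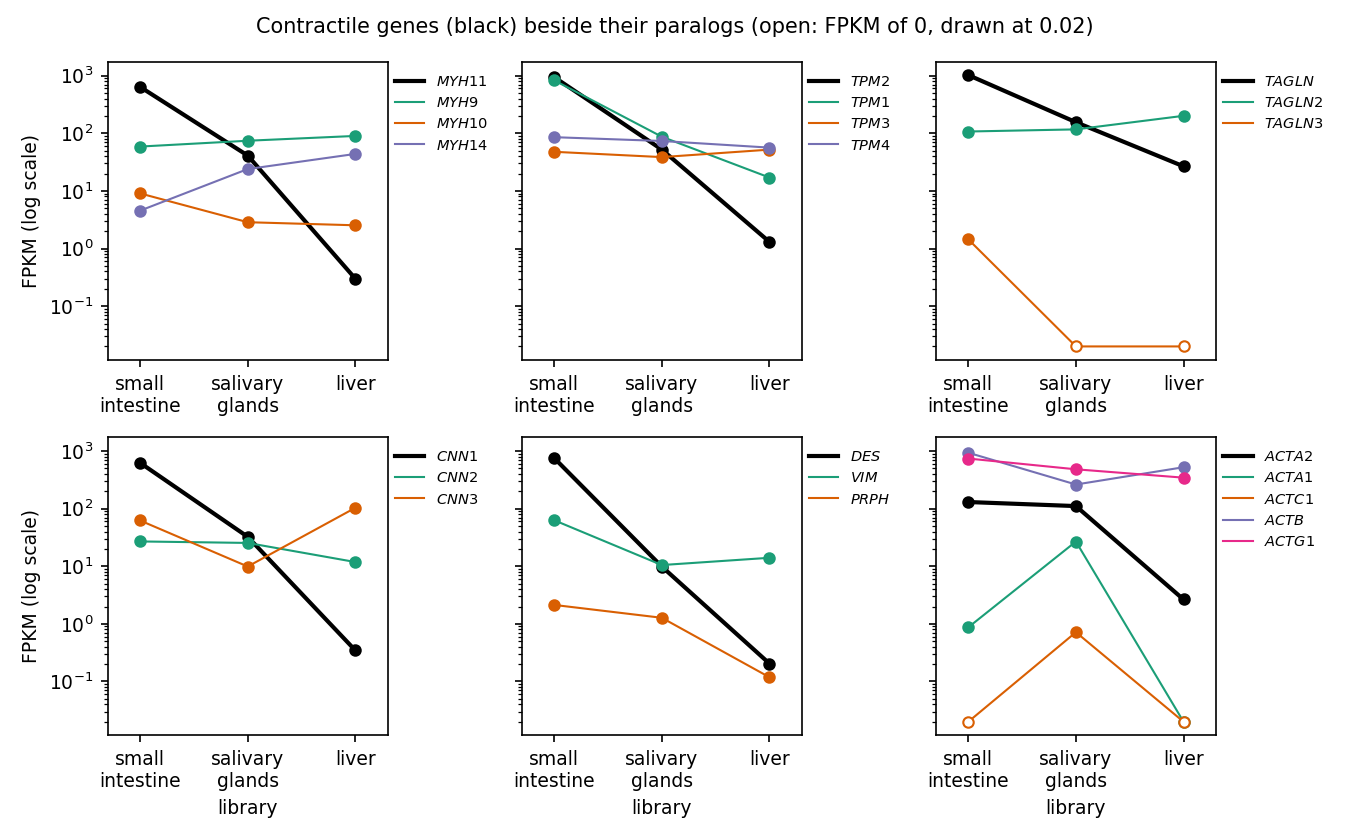
FPKM on a log scale (y axis) of 6 contractile genes (black) and their paralogs (colours) in the 3 libraries (x axis), where lines only join the values of 1 gene and open points mark an FPKM of 0. MYH11, CNN1, DES and TPM2 drop steeply to the liver, while MYH9, TAGLN2, TPM3, TPM4, ACTB and ACTG1 vary by less than 4-fold.

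Several records share a member's Swiss-Prot symbol but not its NR product. There were 15 of these, 14 of them in the expression tables: 2 under MYH11, 1 under CNN1 and 12 under MYLK. Those under MYH11 are the unconventional myosins XVIIIA (15.3, 11.0 and 17.9 FPKM in the order small intestine, salivary glands and liver) and XVIIIB (4.63, 0.0680 and 0.875 FPKM). The record under CNN1 is LIM domain only protein 7, at 13.0, 10.5 and 11.4 FPKM. A short MYLK record of 716 bases (gene18282), for which NR names no product, had 0, 2 and 12 fragments and may or may not be a piece of MYLK.

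Of the other 11 records under MYLK, the most steeply distributed was the striated muscle preferentially expressed protein kinase (SPEG, gene69). It lies next to DES on the same scaffold, from 395412 to 449825, and it also neighbours DES in the RefSeq gene table of a different pangolin assembly, MJ_LKY. It had 2121 fragments in the library labelled small intestine, 54 in the salivary glands and 2 in the liver, against 24309, 406 and 13 for DES. Its ratio of the first to the second of these was 44.2-fold (33.7 to 59.0), below the 67.3-fold of DES. Palladin, an actin cross-linker that also carries the MYLK symbol, was at 55.5, 20.04 and 32.5 FPKM.

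The rest of the contractile apparatus was described by gene lists. Every list count below is to be read beside the shares over all genes tested. Against the liver, 24.2% were at least 2-fold higher and 24% lower in the library labelled small intestine. Against the salivary glands, 20.6% were higher and 16.9% lower. Among 16 genes of the thin filament and actin binding, 9 were at least 2-fold higher and 1 at least 2-fold lower in the library labelled small intestine than in the liver, with a median log2 ratio of 1.62. Against the salivary glands 9 of 16 were higher and 0 lower. Their most abundant genes were ACTB and TPM1, and TPM1 was 49.1-fold higher than in the liver and 8.12-fold higher than in the salivary glands. The list is a mixture, since several of its genes serve every cell.

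Of 14 genes of myosin and its light chain control, 8 were higher and 1 lower in the library labelled small intestine than in the liver, and 7 were higher and 2 lower than in the salivary glands. MYL9, the regulatory light chain that MYLK phosphorylates in smooth muscle, was at 279, 37.3 and 2.70 FPKM, in the order small intestine, salivary glands and liver. The essential light chain MYL6, which non-muscle cells also use, was at 564, 238 and 263 FPKM. MYL9 was thus 90.5-fold higher in the library labelled small intestine than in the liver by TMM-scaled counts, and MYL6 2.08-fold.

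The dense plaques, the membrane sites where filaments are anchored, gave the most uniform list. Of its 25 genes, 23 were at least 2-fold higher in the library labelled small intestine than in the liver and 0 were lower, with a median log2 ratio of 3.13. Against the salivary glands 23 were higher and 2 lower, with a median of 2.62. CSRP1, a LIM protein of the actin cytoskeleton, was at 587, 111 and 36.0 FPKM, and FHL1, another LIM protein, at 503, 12.4 and 24.5 FPKM.

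Of 17 tested genes for calcium handling and membrane excitation, 15 were higher and 1 lower in the library labelled small intestine than in the liver, with a median log2 ratio of 6.07. Of the lists of the smooth muscle apparatus, this one had the median nearest to that of the 9 contractile genes, 8.03. Several of its ratios rest on few liver fragments. The ratio of PLN, which sets the median, rests on 4 (PLN was named after its values were seen). Against the salivary glands 11 of 17 were higher and 1 lower. PTRF, a coat protein of the membrane pits called caveolae, was at 149, 14.3 and 5.89 FPKM, while the calcium pump ATP2A2 was at 23.9, 24.1 and 64.9 FPKM.

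The receptors did not share one direction. Of 9 tested genes, 5 were higher and 4 lower in the library labelled small intestine than in the liver. The angiotensin receptor AGTR1 was at 0.328, 0.841 and 65.1 FPKM and the endothelin receptor EDNRB at 8.27, 7.36 and 35.1 FPKM, both highest in the liver.

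Regulators of smooth muscle genes were 11 of 19 higher and 0 lower in the library labelled small intestine than in the liver, and 9 of 19 higher and 0 lower than in the salivary glands. The highest were BARX1, a homeobox factor of stomach mesenchyme, at 63.5, 0.246 and 0 FPKM, and FOXF1, a factor of gut mesenchyme, at 52.7, 1.499 and 2.42 FPKM. BARX1 had 1717 fragments in the library labelled small intestine, 7 in the salivary glands and 0 in the liver. Myocardin (MYOCD), the coactivator that switches on contractile genes with serum response factor, was named after its values were seen, and it was at 2.86, 0.0757 and 0.0693 FPKM. Serum response factor itself (SRF, likewise named after its values were seen) was at 38.1, 13.1 and 9.75 FPKM.

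**Figure D4:**
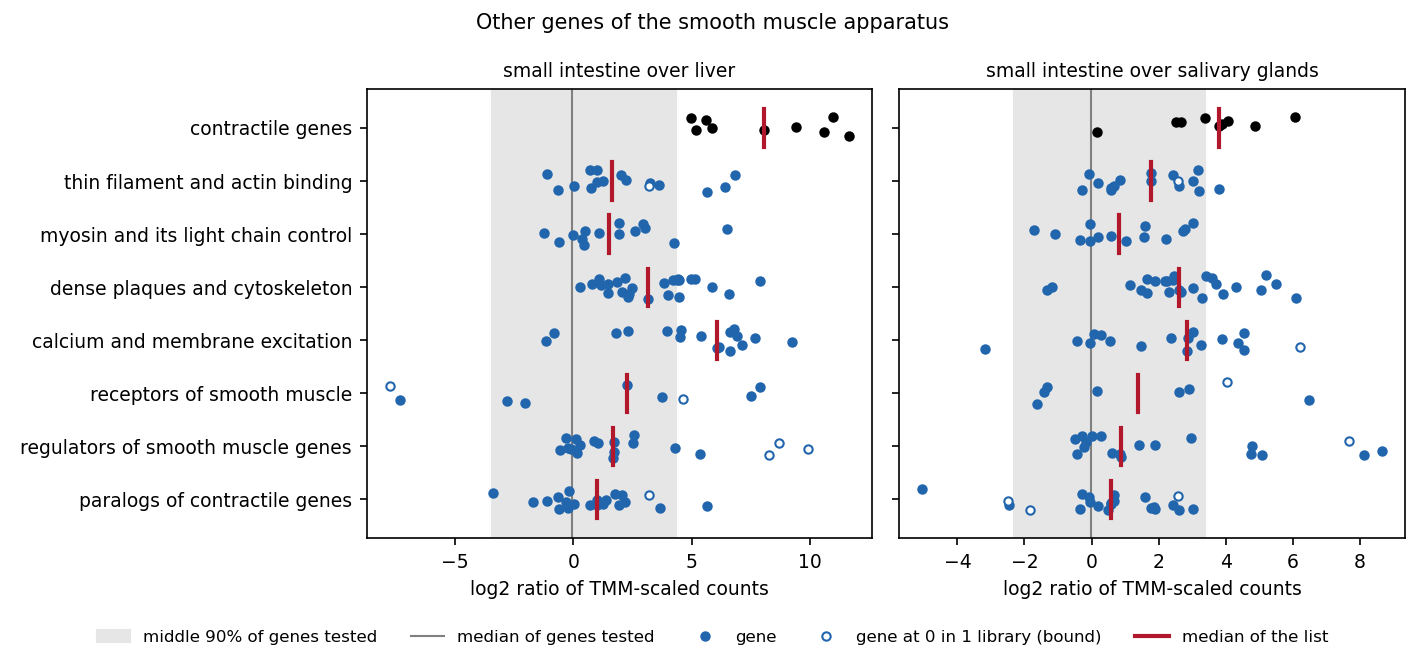
Log2 ratio of TMM-scaled counts (x axis) for each tested gene of 8 lists (y axis), from the library labelled small intestine over the liver (left) and over the salivary glands (right). Red bars are list medians, open points are genes at 0 in either library, whose ratio is a bound, and the grey band holds the middle 90% of all genes tested. The contractile genes have the highest list median in both panels, 8.03 and 3.79.

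Markers of other cells that carry contractile genes were counted beside these results. Of 21 skeletal muscle genes, 5, 4 and 3 were above 1 FPKM in the order small intestine, salivary glands and liver. Of all genes, 59.4%, 56.3% and 57.0% were. MYOD1, MYOG and CAV3 were at 0 in all 3 libraries, while CKM was at 24.8, 2.42 and 0.0329 FPKM (all named after their values were seen). The list summed to 89.5, 36.4 and 8.55 FPKM in the same order. The first sum was led by ACTN2 (54.8 FPKM) and the second by ACTA1 (26.8 FPKM). Of the cardiac list, NPPA, NPPB, MYL7 and NKX2-5 (named after their values were seen) were at 0 in all libraries. The sums were 71.7, 1.70 and 4.64 FPKM, the first almost wholly TNNT2 (70.1 FPKM). MYL4 was at 0.329, 0.517 and 3.97 FPKM. The myosin heavy chains of fast skeletal muscle (MYH1, MYH2 and MYH4) had 5, 10 and 5 fragments in the salivary glands. They had 0 in the library labelled small intestine and in the liver.

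Myoepithelial cells of glands contain ACTA2 and other contractile genes, and so their markers bear on the salivary glands. The myoepithelium list summed to 229, 119 and 0.387 FPKM in the order small intestine, salivary glands and liver. Above 1 FPKM were 4 of 8 genes in the salivary glands, 7 of 8 in the library labelled small intestine and 0 of 8 in the liver. Of all genes, 56.3%, 59.4% and 57.0% were, respectively, so the count in the salivary glands was not above the share of all genes. KRT5 was at 88.2, 55.0 and 0 FPKM and KRT14 at 77.1, 34.9 and 0 FPKM. The part of these cells in the ACTA2 level was not tested, and keratins of this kind also occur in stratified epithelium.

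Pericyte and vascular wall genes summed to 169.8, 25.9 and 56.1 FPKM, with MCAM at 60.3, 2.15 and 1.61 FPKM and RGS5 at 37.2, 3.79 and 2.97 FPKM. In the library labelled small intestine, 8 of 9 were at least 2-fold higher than in the salivary glands and 5 of 9 than in the liver. In the salivary glands 2 of 8 tested genes were at least 2-fold higher and 3 at least 2-fold lower than in the liver. Of all genes tested in that pair, 22.9% were higher and 24.9% lower. Other genes of the list, named after their values were seen, were high in the liver: KCNJ8 was at 23.3, 0.558 and 30.4 FPKM, ABCC9 at 3.83, 0.323 and 7.55 FPKM and PDGFRB at 17.1, 3.94 and 10.9 FPKM. Endothelial genes summed to 85.0, 34.9 and 63.6 FPKM, with PECAM1 at 23.9, 12.8 and 18.0 FPKM and ESAM at 17.5, 5.81 and 12.2 FPKM. In the library labelled small intestine, 1 of 9 endothelial genes was at least 2-fold higher and 2 were lower than in the liver. Of all genes tested in that pair, 24.2% were higher and 24% lower. The part of vessels in the contractile levels was not tested.

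In the liver, markers of hepatic stellate cells, which take on smooth muscle genes when activated, summed to 55.9 FPKM, against 5.11 in the library labelled small intestine and 0.812 in the salivary glands. RGS4 (38.9 FPKM) and HGF (9.79 FPKM) led this list. In the liver 5 of its 8 genes were above 1 FPKM, which is near the 57.0% of all genes above 1 FPKM there. COLEC11 and DBH (named after their values were seen) were at 0 FPKM there. TAGLN, MYLK, SYNM, ACTA2 and TPM2 were above 1 FPKM in the liver, and DES, MYH11, CNN1 and LMOD1 were not. The part of stellate cells in these levels was not tested.

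Fibroblast genes summed to 384, 104 and 129.8 FPKM, with DCN at 126, 49.5 and 91.4 FPKM and COL3A1 at 88.9, 3.53 and 0.819 FPKM. Genes of the interstitial cells of Cajal, the pacemakers of the gut wall, were low, summing to 10.4, 15.7 and 8.21 FPKM, with ANO1 at 3.52, 7.29 and 5.74 FPKM and ETV1 at 0.567, 5.08 and 0.295 FPKM. KIT, the defining marker of these cells (named after its values were seen, as was CNTFR), was highest in the library labelled small intestine, at 2.87, 1.78 and 0.0310 FPKM, and CNTFR was at 3.15, 0.728 and 1.60 FPKM. Enteric neuron and glia genes summed to 32.7, 14.4 and 52.7 FPKM, the last almost wholly UCHL1. Of 8 tested, 7 were at least 2-fold higher and 1 lower in the library labelled small intestine than in the liver, with a median log2 ratio of 5.04, and 5 were higher and 1 lower than in the salivary glands. The neuropeptide VIP was at 11.9 FPKM in the library labelled small intestine and at 0 in the others, and UCHL1 was at 9.13, 4.86 and 51.8 FPKM. Their part in the contractile levels was not tested.

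Finally, the genes with the most similar distribution were sought among 4967 other genes with at least 20 FPKM in any library. For each gene, the FPKM of a library was divided by its sum over the 3 libraries. The median shares of the 9 contractile genes were 93.9% in the library labelled small intestine, 6.04% in the salivary glands and 0.367% in the liver. The nearest gene was SPARC-like protein 1 (gene5742, distance 0.00248), a matrix protein, at 126, 8.10 and 0.189 FPKM. After it came PCP4, a calmodulin-binding peptide (28.8, 1.83 and 0.214 FPKM), TMEM171, a membrane protein (30.6, 1.76 and 0.163 FPKM), SLC25A4, the ADP/ATP carrier of muscle mitochondria (99.0, 5.73 and 0.203 FPKM), and TRIM63, a ubiquitin ligase of muscle (34.5, 1.97 and 0.0352 FPKM).

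The other 5 were PDLIM3, a PDZ and LIM protein of actin-rich structures (gene8303, 1 of 2 records, 145.7, 7.88 and 0.482 FPKM), SBSN (148, 7.86 and 0.680 FPKM), a record with the Swiss-Prot symbol COL1A1 (gene22712, 50.8, 2.64 and 0.202 FPKM), MUC1 (152, 7.57 and 0.304 FPKM) and CLIC6 (31.1, 1.52 and 0.114 FPKM). This set joins muscle genes with genes of epithelia, and the likeness rests on 3 libraries. Among the contractile genes themselves, MYH11 was nearest to the median (distance 0.00322) and ACTA2 the farthest (0.565, with 584 other genes nearer). The nearness of MYH11 follows from how the median shares were made. Those of the library labelled small intestine and of the salivary glands are the shares of MYH11 itself. The genes listed above are therefore in effect those nearest to MYH11.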

How the data were processed

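Paired-end reads of poly(A) RNA from 3 tissues of an adult female were cleaned and aligned with TopHat2 (Bowtie2) to the pangolin genome by the authors, with the library treated as unstranded. RSEM is named for the expression values, and the genome build and a tool for the deposited counts are not given in the sources used here. The deposited tables hold, per gene and library, a raw fragment count, an FPKM (the authors normalised fragments by transcript length and mapped fragments), a normalised score (per the file headers, a normalised count, here close to the count times 1 factor per library) and a gene length. The deposited annotation holds Swiss-Prot, NR and KEGG names.

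Counts were scaled with TMM effective library sizes (edgeR 4.0.16; size factors of DESeq2 1.42.0 as an alternative), and ratios carry exact Clopper-Pearson intervals. FPKM values carry exact Poisson intervals. A count of 0 was set to a floor of 3 fragments. Genes with at least 10 fragments in either library were tested against a 2-fold threshold, with no p-value. PCR duplicates are not told apart, so intervals cover counting error only. Genes of a list with several records had their counts summed, and their FPKM was taken from the record with the most fragments. The scaling was tested on simulated pairs with the same means, in which some genes were raised in the first library and none lowered. That setting is simpler than these tissues, so it does not show how the scaling fared on them.

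Members and lists were chosen with earlier results of these data known. Named in the text are every member record, the 2 genes of each list with the highest FPKM, paralogs of members and the 10 genes nearest in distribution. Other scalings, filters, thresholds and record rules were tried. The normalised score was not used for results. No sequence of the members was used here.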

Additional observations from a re-analysis of the deposited data

How the results depend on the processing

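No paired analysis was possible because each tissue has 1 library, so the shared animal leaves 1 value per tissue and nothing to estimate a spread from. Of 108 ratios of single genes recomputed under 4 other scalings, 1 changed sign: ACTA2, small intestine over salivary glands, at -0.30 with library size only, and 24 left their counting interval. The 24 counts of genes at least 2-fold higher stayed within 1.5 times the main count, and the 4-fold threshold left 9, 8 and 7 of 9 genes. The median log2 ratio of small intestine over salivary glands was 3.33 with library size only and 3.96 with the deposited FPKM, beside 3.79. Library size alone shifted the median of all genes by -0.24, -0.46 and 0.22 in the 3 pairs, and the deposited FPKM by -0.10 in salivary glands over liver. The summed level moved with the total it is set against: converted to TPM it was 6553 in the library labelled small intestine, 771 in the salivary glands and 68.2 in the liver. With the total rescaled to leave out the 10 most abundant genes it was 8903, 765 and 59.8 FPKM. With records taken by Swiss-Prot symbol alone it was 4601, 488 and 125 FPKM. The order of the libraries was the same in each of these. With 1 animal and 1 library per tissue, differences between dissections and library preparations cannot be told apart from differences between tissues, how animals vary is not known, and the liver values of CNN1, DES and LMOD1 rest on 10, 13 and 23 fragments.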
